A study of Bos taurus with 6 samples.

Results

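The genes described here are 10 that make, bind or break down hyaluronan: HAS2, HAS3, UGDH, TNFAIP6, CD44, CEMIP2, HYAL1, HYAL2, HAPLN1 and HMMR. They were taken by symbol from the annotation of the Affymetrix GeneChip Bovine Genome Array, which has 21 probe sets for them among the 24016 tested, and 10 of its 9174 named genes. A probe set is a group of short probes that together measure 1 transcript. The arrays measured RNA of bovine articular chondrocytes, the cells of joint cartilage, taken from the metacarpal-phalangeal joints of 3 cows from an abattoir and plated at high density as micromass cultures. Of the cultures, 3 were untreated and 3 received TGF-β1 at 5 ng/ml. RNA was taken after 8 hours. The labels number the arrays 1 to 3 in each group and give no age, sex or breed. The comparison asks which of these genes respond to TGF-β1 in articular chondrocytes.

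Hyaluronan is a very long, unsulfated sugar chain made of alternating glucuronic acid and N-acetylglucosamine. Synthases in the plasma membrane (HAS1, HAS2 and HAS3) extend it from UDP-glucuronic acid, which UGDH makes, and from UDP-N-acetylglucosamine. In cartilage, aggrecan binds along the chain and the link protein (HAPLN1) locks it in place, while CD44 ties the chain to the chondrocyte. TNFAIP6 (TSG-6) moves heavy chains of the inter-alpha-inhibitor onto hyaluronan, CEMIP2 and the hyaluronidases HYAL1 and HYAL2 are known for cutting it, and HMMR, named as a hyaluronan receptor, is also a protein of the mitotic spindle.

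The values are log2 signals from which the median of the 6 arrays was taken away, probe set by probe set. They compare the arrays with each other, so the level of a gene, and with it the order of the genes by level or the presence of chondrocyte markers, cannot be read from them. Replicate 3 stood apart from the others in both groups. Over 37 probe sets of 26 cell cycle genes, its median lay 2.29 log2 units above the mean of replicates 1 and 2 in the untreated culture and 2.16 above it with TGF-β1. The TGF-β1 array of replicate 2 had high hybridization controls, bacterial transcripts that are added to the sample, with a median of 1.53 log2 units over 18 probe sets against -0.17 to 0.06 on the other 5 arrays. Results are therefore also given without replicate 2 or 3 where that changed them. In whole cultures, more RNA per cell and more cells that make it cannot be told apart.

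TGF-β1 raised TNFAIP6, CEMIP2, UGDH and, on 1 of its 3 probe sets, HAS2. These are 5 of the 21 probe sets, and 0 of the 21 fell. Here a probe set is said to have risen or fallen where limma's paired fit, which includes the replicate as a term, gave a Benjamini-Hochberg adjusted p under 0.05 over all 24016 probe sets. Over the whole array, 2.44% of probe sets rose and 3.46% fell by that measure. The median log2 difference of the 21 probe sets was 0.04, against 0.01 over all probe sets. Without the replicate term, limma put 0 of the 21 and 0 of the 24016 at an adjusted p under 0.05, and 4 of the 21 and 1377 of the 24016 at an unadjusted p under 0.05. The unequal-variance test of the methods also put 0 there after adjustment, with 4 and 1032 at an unadjusted p under 0.05. All 3 TGF-β1 arrays lay above all 3 untreated arrays on 4 of the 21 probe sets, and over the array on 6.11% of probe sets. They lay below them on 0 of the 21, against 4.91%. The 4 were those of TNFAIP6, CEMIP2 and UGDH. TNFAIP6, CEMIP2 (as TMEM2) and UGDH are also on the list of regulated genes that the study drew from these same arrays, so their direction is not independent of it. Of the 17 probe sets of the 7 other genes, 1 rose.

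**Figure D1:**
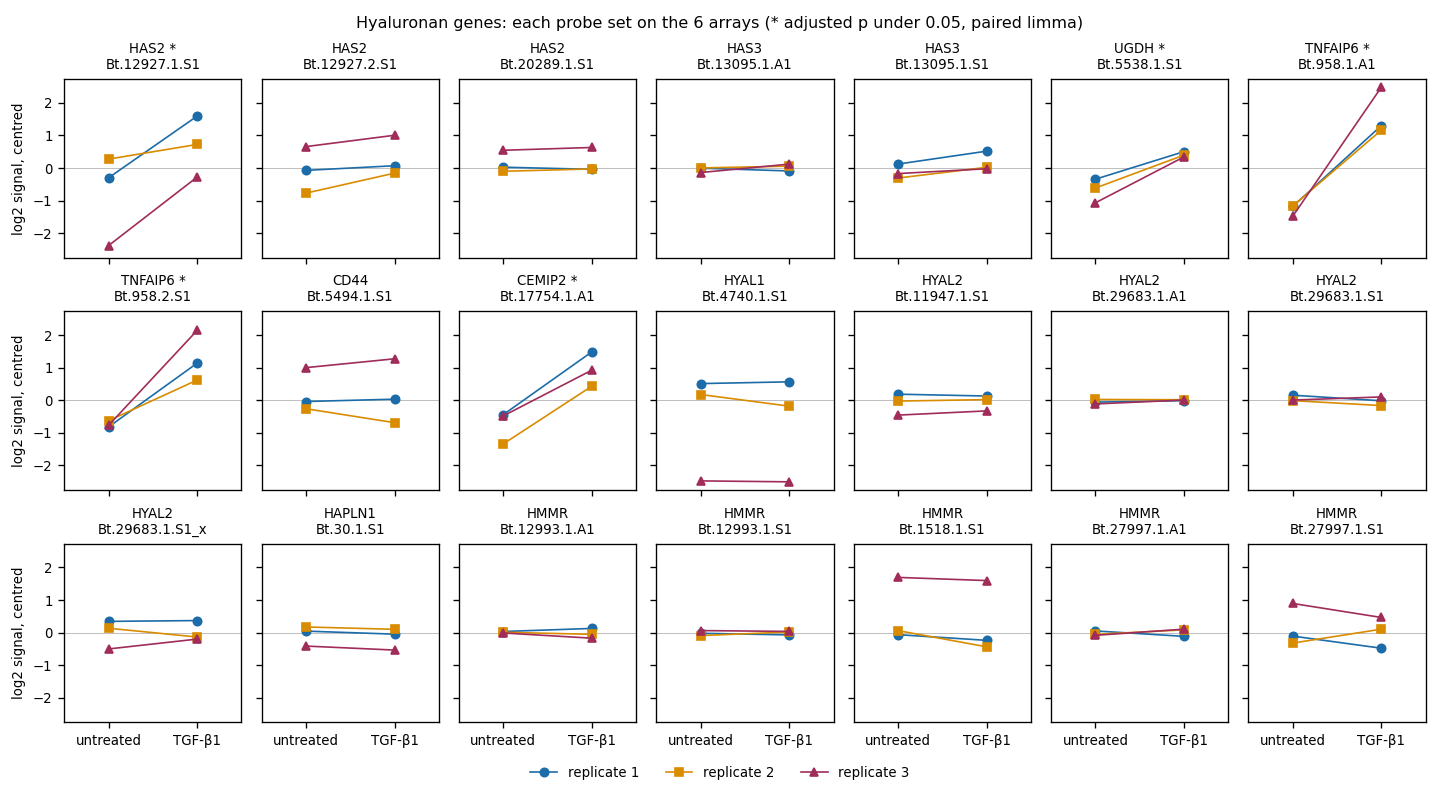
Centred log2 signal of the 21 probe sets in the untreated and the TGF-β1 culture of each replicate (points, joined by a line for each replicate; an asterisk marks the 5 probe sets with an adjusted p under 0.05). TNFAIP6, CEMIP2 and UGDH climb in all 3 replicates with no overlap between the groups, HAS2 climbs on Bt.12927.1.S1 from different starting points, and HYAL1, CD44 and 2 probe sets of HMMR (Bt.1518.1.S1 and Bt.27997.1.S1) part by replicate and not by treatment.

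Of the hyaluronan synthases, HAS2 passed the test on 1 probe set and HAS3 on 0. HAS2, which makes long chains, is known as the main synthase of articular chondrocytes. On its probe set Bt.12927.1.S1_at, the untreated arrays of replicates 1, 2 and 3 read -0.30, 0.28 and -2.38, and the TGF-β1 arrays 1.60, 0.73 and -0.28 (centred log2 signal). Each culture was higher with TGF-β1 than its partner, but the groups overlapped, because replicate 3 lay far below the others in both. The differences were 1.89, 0.45 and 2.10, with a mean of 1.48 log2 units (SE 0.269 in limma's paired fit, n = 3 pairs; adjusted p = 0.0157), or 2.79-fold. With replicate number as a random block, in place of a fixed one, the adjusted p in limma was 0.179.

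The other probe sets of HAS2 did not pass. On Bt.12927.2.S1_at the differences were 0.14, 0.61 and 0.35 (mean 0.37, SE 0.122, n = 3 pairs, limma adjusted p = 0.131), and on Bt.20289.1.S1_at they were -0.07, 0.07 and 0.09 (mean 0.03, SE 0.106, n = 3 pairs, limma adjusted p = 0.919). They also placed replicate 3 at the other end of the order in both groups. Replicate 3 was the highest on both, 1.08 and 0.58 log2 units above the mean of replicates 1 and 2 in the untreated cultures, where on Bt.12927.1.S1_at its distance from that mean was -2.37. The annotation ties the probe set that rose to the RefSeq messenger RNA of HAS2, and the other probe sets to further sequence records. When the 3 probe sets were averaged, limma put the rise of HAS2 at 0.63 log2 units (SE 0.113, adjusted p = 0.0235 over 9174 genes). That average comes mostly from Bt.12927.1.S1_at, with 1.48 log2 units against 0.37 and 0.03. It is therefore not separate support for the call on that probe set.

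HAS3, which makes shorter chains, did not pass the test on either probe set. Bt.13095.1.S1_at was higher with TGF-β1 in all 3 replicates, by 0.40, 0.33 and 0.15, with a mean of 0.29 log2 units (95% interval 0.04 to 0.54; limma adjusted p = 0.181, n = 3 pairs). Bt.13095.1.A1_at had -0.09, 0.06 and 0.26, with a mean of 0.08 (95% interval -0.18 to 0.34). The response of HAS2 on Bt.12927.1.S1_at exceeded that of HAS3 on Bt.13095.1.S1_at by 1.50, 0.12 and 1.96 log2 units in replicates 1, 2 and 3. It had that direction in 3 of 3 replicates, but only for the probe set of HAS2 that had passed. On Bt.20289.1.S1_at (-0.07, 0.07 and 0.09), HAS2 responded less than HAS3 on Bt.13095.1.S1_at in each replicate. On Bt.12927.2.S1_at (0.14, 0.61 and 0.35), HAS2 responded less in replicate 1 and more in replicates 2 and 3. An exact permutation test on 3 pairs cannot go below p = 0.25, and no other test of a difference between HAS2 and HAS3 was made. HAS1, which is not among the 10 genes, had log2 differences of -0.25 and -0.17 on its probe sets and did not pass either (limma adjusted p = 0.361 and 0.456).

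UGDH oxidizes UDP-glucose to UDP-glucuronic acid, the precursor of hyaluronan and of the sulfated chains. Its untreated arrays read -0.34, -0.61 and -1.07 and its TGF-β1 arrays 0.50, 0.40 and 0.34 for replicates 1, 2 and 3. The treated cultures lay close together, and the untreated ones were spread more widely. The difference was 1.09 log2 units (SE 0.131, n = 3 pairs, limma adjusted p = 0.00279), or 2.13-fold, with 0.85, 1.01 and 1.41 in the replicates.

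The other enzymes that supply the precursors were measured with 10 probe sets of 7 genes, of which 3 probe sets rose and 1 fell. GFPT2, among the 3, could enter this count only through the study's list of genes regulated on these same arrays. UGP2, which makes the UDP-glucose that UGDH uses, had a log2 difference of -0.67 and fell (SE 0.105, n = 3 pairs, limma adjusted p = 0.00876). Its untreated arrays read 0.07, 0.56 and 0.59 and its TGF-β1 arrays -0.54, -0.18 and -0.07, with no overlap. Neighbouring steps on the way to UDP-glucuronic acid thus differed in direction, and UGP2 missed the threshold without replicate 2 (limma adjusted p = 0.0558).

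On the way to UDP-N-acetylglucosamine, GFPT2, GNPNAT1 and 1 of the 2 probe sets of GFPT1 passed the test. GFPT2 and GFPT1 catalyze the same entry step, in which fructose 6-phosphate becomes glucosamine 6-phosphate. GFPT2 read -0.80, -0.22 and -0.92 in the untreated cultures and 1.35, 0.22 and 1.73 with TGF-β1, so that replicate 2 moved by only 0.43 log2 units where replicates 1 and 3 moved by 2.15 and 2.65. Its mean difference was 1.74 log2 units (SE 0.338, n = 3 pairs, limma adjusted p = 0.0205), and the call was lost after a further quantile normalization, with a robust variance prior or with the random block (limma adjusted p = 0.0596, 0.112 and 0.0842). GFPT2 has its name only from the study's list of regulated genes, so its call is not independent of that list.

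GFPT1 rose on Bt.13053.1.S1_at by 0.73 log2 units (SE 0.122, n = 3 pairs, limma adjusted p = 0.0111), with -0.23, -0.30 and -0.29 in the untreated cultures and 0.45, 0.23 and 0.68 with TGF-β1. Its other probe set, Bt.13053.1.A1_at, had 0.21 (adjusted p = 0.338). GNPNAT1, which acetylates glucosamine 6-phosphate, rose as well, with 0.63 log2 units (SE 0.135, n = 3 pairs, limma adjusted p = 0.0308) and missed the threshold without replicate 2, without replicate 3 or with the random block (adjusted p = 0.164, 0.103 and 0.106). PGM3 and UAP1, which act after it, did not pass. PGM3 had a log2 difference of 0.32 (95% interval 0.05 to 0.59; limma adjusted p = 0.172), and the 3 probe sets of UAP1, the last step, had -0.06, -0.12 and 0.20. UXS1, which draws UDP-glucuronic acid off toward UDP-xylose, had 0.10 (95% interval -0.15 to 0.35).

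**Figure D2:**
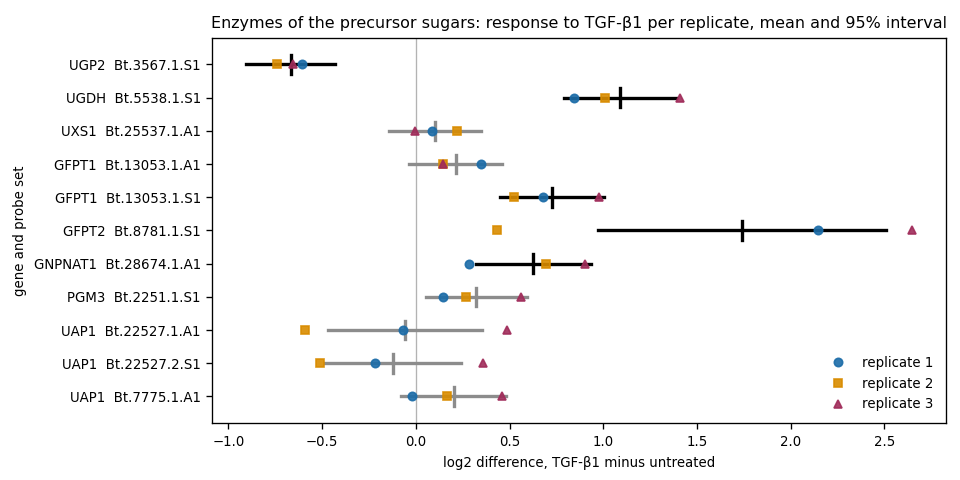
Log2 difference, TGF-β1 minus untreated, of UGDH and 7 other enzymes that make or use the precursor sugars, with replicates as points, limma's mean as a tick and its 95% interval as a line (black where the adjusted p was under 0.05, grey otherwise). Of those that passed, UGDH, GFPT2, GNPNAT1 and 1 probe set of GFPT1 lie above 0, and UGP2 lies below it. PGM3, which did not pass, also has its interval above 0 (0.05 to 0.59). GFPT2 has its replicate 2 at 0.43.

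TNFAIP6 had the largest response of the 10 genes. Its product binds hyaluronan through a Link module, as aggrecan and CD44 do, and is secreted in inflamed joints and around the ovulating oocyte. On Bt.958.1.A1_at the untreated arrays read -1.18, -1.16 and -1.48 and the TGF-β1 arrays 1.30, 1.16 and 2.48. The untreated cultures were alike, and with TGF-β1 replicate 3 lay above the others. The mean difference was 2.92 log2 units (SE 0.270, n = 3 pairs, limma adjusted p = 0.000843), or 7.58-fold, and was rank 6 of 24016 in size among increases.

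The second TNFAIP6 probe set, Bt.958.2.S1_at, gave the same picture with a smaller difference. Its untreated arrays read -0.82, -0.62 and -0.76 and its TGF-β1 arrays 1.14, 0.62 and 2.15, a mean difference of 2.04 log2 units (SE 0.253, n = 3 pairs, limma adjusted p = 0.00327), or 4.11-fold. It responded less than the first probe set by 0.52, 1.08 and 1.05 log2 units in the 3 replicates. Leaving out replicate 3, where both probe sets moved most, left 2.40 and 1.60 log2 units, both at an adjusted p under 0.05.

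HAPLN1, which stabilizes the binding of aggrecan to hyaluronan, differed little between the groups. Its untreated arrays read 0.05, 0.17 and -0.41 and its TGF-β1 arrays -0.05, 0.10 and -0.54. Each culture was slightly lower with TGF-β1, by 0.09, 0.07 and 0.12, so the mean was -0.10 log2 units, with a 95% interval of -0.33 to 0.14 (limma adjusted p = 0.699, n = 3 pairs). The replicates differed more than the treatments, since replicate 3 was the lowest in both groups.

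The proteoglycans that bind hyaluronan did not pass the test. Among 20 probe sets of 13 further matrix and plasma proteins of that kind, 0 rose and 0 fell, and by unadjusted p the lowest belonged to versican and aggrecan. Versican (VCAN), the large proteoglycan of loose and developing matrix, had means above 0 on all 3 probe sets, at 0.79, 0.55 and 0.47 log2 units (limma adjusted p = 0.0732, 0.175 and 0.352, n = 3 pairs). Replicate 1 gave the largest part, with 1.57 on Bt.2129.1.S1_at against 0.40 and 0.39 in replicates 2 and 3, and on Bt.5395.1.S1_a_at replicate 2 was lower with TGF-β1, at -0.20. Without replicate 1, the means were 0.39, 0.19 and 0.020 (limma adjusted p = 0.232, 0.644 and 0.977). Without replicate 3, Bt.2129.1.S1_at and Bt.2129.2.S1_at passed the test (adjusted p = 0.0166 and 0.0340). Aggrecan (ACAN), the main proteoglycan of cartilage, had -0.40, -0.25 and 0.13 on its 3 probe sets (limma adjusted p = 0.114, 0.264 and 0.634, n = 3 pairs).

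CD44, the main hyaluronan receptor of chondrocytes, did not move in a common direction. Its untreated arrays read -0.04, -0.26 and 1.004 and its TGF-β1 arrays 0.04, -0.69 and 1.28. The differences were 0.07, -0.43 and 0.27, with a mean of -0.03 log2 units (95% interval -0.36 to 0.30; limma adjusted p = 0.949, n = 3 pairs). Replicate 3 stood 1.15 log2 units above the mean of replicates 1 and 2 in the untreated cultures and 1.60 above it with TGF-β1.

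HMMR has 5 probe sets, none of which passed the test, with log2 differences from -0.26 to 0.05 (lowest limma adjusted p 0.283, n = 3 pairs). On Bt.1518.1.S1_at the untreated arrays read -0.06, 0.06 and 1.70 and the TGF-β1 arrays -0.24, -0.44 and 1.60. Replicate 3 was thus 1.70 and 1.93 log2 units above the mean of the other replicates, in the direction of the cell cycle genes. On Bt.27997.1.S1_at it was 1.11 and 0.65 above it. The 3 other probe sets of HMMR spanned only -0.17 to 0.13 log2 units over all 6 arrays, and 1 of these, Bt.27997.1.A1_at, comes from the same sequence record as Bt.27997.1.S1_at. The receptor genes outside the 10 (LYVE1, STAB1 and STAB2, 5 probe sets) also had 0 that rose or fell.

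CEMIP2 was the breakdown gene that responded. Its product is a membrane protein described as a hyaluronidase of the cell surface. The untreated arrays read -0.44, -1.34 and -0.48 and the TGF-β1 arrays 1.49, 0.44 and 0.93. The groups did not overlap, and replicate 2 was the lowest in both. The differences of 1.93, 1.77 and 1.40 were closer to each other than those of TNFAIP6 or of HAS2 on Bt.12927.1.S1_at. Their mean was 1.70 log2 units (SE 0.127, n = 3 pairs, limma adjusted p = 0.000411), or 3.25-fold, which was rank 36 of 24016 among increases and the lowest adjusted p of the 21 probe sets.

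The hyaluronidases HYAL1 and HYAL2 did not pass. HYAL1, which breaks down hyaluronan in lysosomes, read 0.51, 0.18 and -2.47 in the untreated cultures and 0.57, -0.18 and -2.50 with TGF-β1. Its mean difference was -0.11 log2 units (95% interval -0.38 to 0.16; limma adjusted p = 0.698, n = 3 pairs), beside a gap of -2.82 and -2.70 between replicate 3 and the mean of the others. HYAL2, a hyaluronidase anchored at the cell surface, had -0.08 to 0.05 on its 4 probe sets, with intervals that together ran from -0.33 to 0.32. The 4 further genes of hyaluronan breakdown measured, HYAL3, SPAM1, GUSB and HEXA, had log2 differences of -0.32 to 0.12 on 4 probe sets, with 0 past the threshold.

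**Figure D3:**
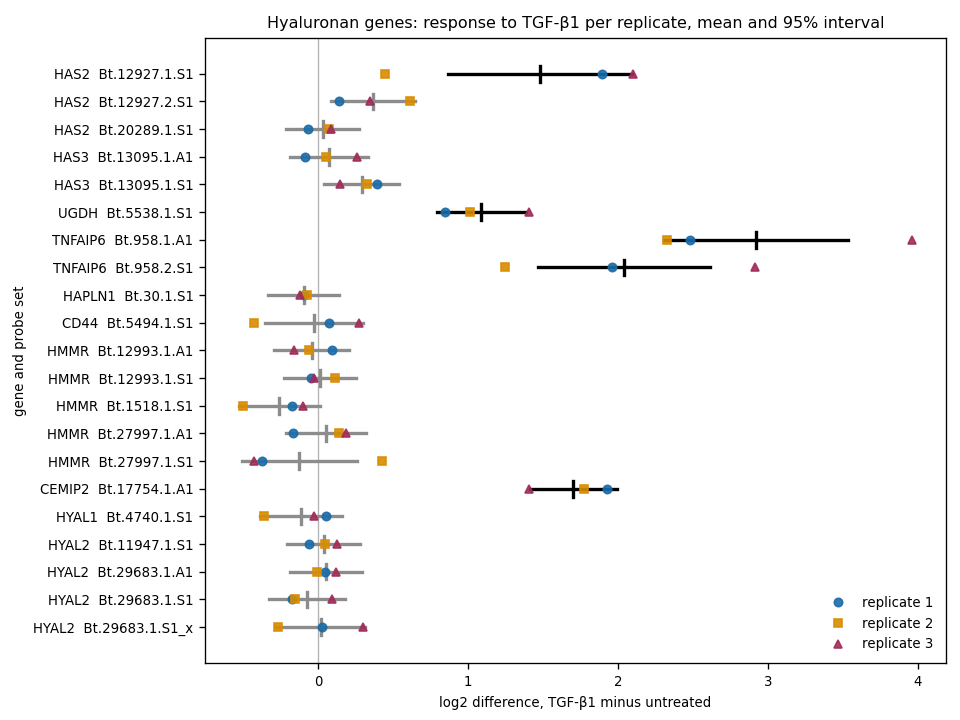
Log2 difference, TGF-β1 minus untreated, of the 21 probe sets, in the order synthesis, binding and breakdown, with replicates as points, limma's mean as a tick and its 95% interval as a line (black where the adjusted p was under 0.05, grey otherwise). TNFAIP6, CEMIP2, UGDH and 1 probe set of HAS2 lie apart from the other 16, whose means lie between -0.26 and 0.37. The intervals use a variance that limma draws toward that of all probe sets, so a single replicate can fall outside its interval.

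Taken by gene, with a gene counted where any of its probe sets passed, 4 of the 10 rose, 0 fell and 6 did not pass. Over all 9174 named genes, 2.91% rose and 5.21% fell by that count. The 14 probe sets of those 6 genes had means between -0.26 and 0.29 log2 units, and their 95% intervals together reached from -0.53 to 0.54. Changes beyond that range lay outside the interval of each of these probe sets. Each single interval was narrower than that range. Of the 28 other pathway genes measured, with 41 probe sets, 3 rose and 1 fell. The genes that rose or fell were enzymes of precursor supply (GFPT1, GFPT2, GNPNAT1 and UGP2). The count of 3 includes GFPT2, which was named only because the study had called it regulated. The median log2 difference of the 41 probe sets was 0.06.

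Several of the 10 genes varied more with the replicate than with treatment. On 5 of the 21 probe sets, replicate 3 lay at least 1 log2 unit from the mean of replicates 1 and 2, in the same direction in both groups, which held for 4.17% of probe sets over the array. It was higher for CD44, for HMMR on Bt.1518.1.S1_at and for HAS2 on Bt.12927.2.S1_at, and lower for HYAL1 and for HAS2 on Bt.12927.1.S1_at. Outside the 10 genes, PTX3, a pentraxin that joins TNFAIP6 in the hyaluronan matrix of the oocyte, lay 3.97 and 3.96 log2 units higher in replicate 3, and LYVE1, the hyaluronan receptor of lymphatic vessels, 2.63 and 2.79 on Bt.24309.1.A1_at. Median shifts of other marker lists in replicate 3 were smaller. They were -0.66 and -0.25 over 19 probe sets of chondrocyte markers, -0.12 and -0.07 over 10 of fibroblast markers, -0.15 and -0.14 over 9 of macrophage markers, and -0.03 and 0.10 over 10 of endothelial markers. With TGF-β1, 4 of the 19 chondrocyte marker probe sets rose and 0 fell. The 4 belong to 2 of the 8 genes measured, and 6 genes did not pass. The median log2 difference of that list was -0.015, with a range of -0.55 to 1.84. Of the 37 cell cycle probe sets, 2 fell and 0 rose, and of the fibroblast, macrophage and endothelial lists 0 rose or fell. Over the array, 2.44% of probe sets rose and 3.46% fell. The part of these lists in the replicate differences and in the responses of the 10 genes was not tested.

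**Figure D4:**
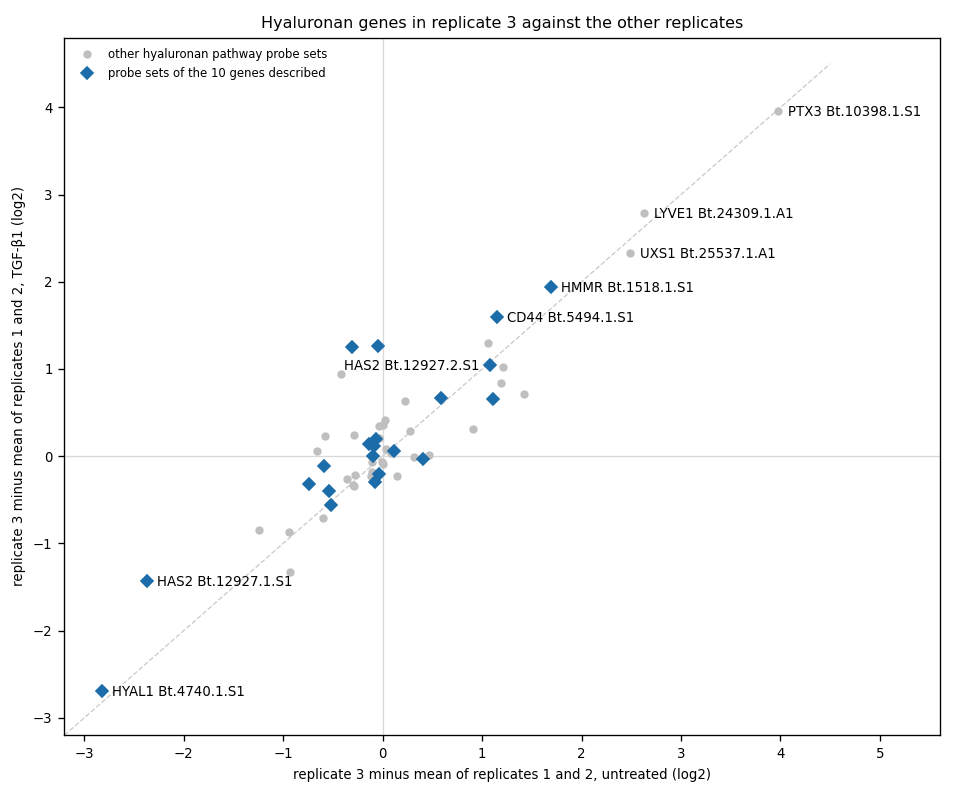
Gap between replicate 3 and the mean of replicates 1 and 2, in the untreated cultures (x axis) and with TGF-β1 (y axis), in log2 units, for the 21 probe sets of the 10 genes (diamonds) and 41 of other hyaluronan pathway genes (circles), with a dashed line where both gaps are equal. HYAL1 at -2.82 and -2.70 and PTX3 at 3.97 and 3.96 lie near the line, and probe sets of HAS2 appear on both sides of 0.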

How the data were processed

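The authors read Affymetrix GeneChip Bovine Genome Arrays, hybridized after a 2-cycle amplification of 50 ng total RNA, and made log2 signals in GeneSpring by Robust Multichip Average (background subtraction, normalization of the arrays together, probe summary). The deposited log2 values have each probe set's median of the 6 arrays set to 0 (largest absolute median 5e-07), so levels and a filter on dim probe sets could not be used. Software versions are not given in the sources used here. The number of arrays, 3 per group, limits the precision.

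Of 24128 probe sets, 112 controls were left out. Symbols came from the platform annotation, updated through Entrez IDs against ARS-UCD2.0 (13263 of 13292 probe sets with 1 symbol matched; 86 had several and were left unnamed), and 24 probe sets were named only by the study's list of regulated genes. Genomic positions and sequences were not used. In ARS-UCD2.0, HAS3 overlaps CHTF8 and DERPC, HYAL2 overlaps TUSC2, and CEMIP2 overlaps a pseudogene. Whether their probes share signal was not tested. No pair of arrays was a copy (at most 56 of 24016 values identical).

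Differences are TGF-β1 minus untreated, tested 2-sided with limma 3.58.1 in R 4.3.3 (lmFit, eBayes, default prior; statmod 1.5.0 for the random block), with the replicate number as a fixed block and Benjamini-Hochberg adjustment over probe sets. SE and 95% intervals are limma's. The study grew cultures of each of 3 cows with and without TGF-β1, but the labels do not tie a number to a cow. Deviations from the group means correlated across probe sets at r = 0.694 to 0.845 between arrays of equal number and -0.683 to 0.185 otherwise. Each r of equal number passed the planned limit of 0.1, so the numbers were taken to pair the arrays. The highest r of unequal number, 0.185 between untreated replicate 2 and TGF-β1 replicate 1, also lay above that limit. In simulated data with 200 of 24016 probe sets changed (20 draws), the paired fit found 10.5% of those changed by 0.5 log2 units. It found 94.8% of those changed by 1 and 99.9% of those changed by 2, and 4.52% of what it called was false. The simulated noise was normal, drawn from limma's fitted prior, and independent between arrays and probe sets. These shares therefore hold for that model and do not estimate the false share among calls on the real arrays. The alternatives were the fit without the block, a random block, each replicate left out, quantile and median scaling, a robust prior, the methods' unequal-variance test and gene means. The 10 genes, the lists of other pathway genes (28 of 34 measured) and of markers, the tests and the rule for named genes (every member, other pathway genes past the threshold, and HAS1, ACAN and VCAN) were chosen with earlier results of these data known. PGM3, UAP1, UXS1, PTX3 and LYVE1 were named after their values were seen. Figures were drawn with matplotlib 3.10.9.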

Additional observations from a re-analysis of the deposited data

Results flagged for a closer look

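The hybridization controls of the TGF-β1 array of replicate 2, which enter no comparison of the groups, had a median of 1.53 log2 units over 18 probe sets, against -0.17 to 0.06 on the other 5 arrays. Without replicate 2, the log2 differences of the 5 probe sets that rose were 1.998 for HAS2, 1.13 for UGDH, 3.22 and 2.44 for TNFAIP6 and 1.67 for CEMIP2, all at a limma adjusted p under 0.05.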

How the results depend on the processing

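The 5 probe sets that rose (TNFAIP6, CEMIP2, UGDH and HAS2 on Bt.12927.1.S1_at) stayed higher at a limma adjusted p under 0.05 without any 1 of the replicates, after quantile or median scaling and with a robust prior. HAS2 came closest to the threshold, at 0.0398 without replicate 1 and 0.0476 after quantile normalization. Each fit without a replicate had 1 residual degree of freedom, beside 5.18 to 12.4 from limma's prior. The p-values of those fits thus rest mainly on the variance over all probe sets, not on the spread of a gene's own replicates. With no replicate block, and in the methods' unequal-variance test, 0 of them and 0 of the other pathway probe sets passed in either direction. The lowest adjusted p without the block was 0.260, for TNFAIP6, and 0.950 was that of HAS2. With the replicate number as a random block, HAS2 was lost and 4 were kept, and 1 of the 3 other pathway probe sets that rose remained, GFPT1. Leaving out a replicate gave 5 member probe sets higher each time, 2 to 4 other pathway probe sets higher and 0 to 1 lower. Among probe sets that did not pass, direction turned for HAS3 on Bt.13095.1.A1_at (-0.015 to 0.16 without 1 replicate), CD44 (-0.18 to 0.17, and 0.033 after quantile normalization), HYAL1 (-0.19 to 0.012), HYAL2 on Bt.11947.1.S1_at (-0.0061 to 0.087) and on Bt.29683.1.S1_x_at (-0.12 to 0.16, and -0.029 after quantile normalization), and HMMR on Bt.12993.1.A1_at (-0.11 to 0.016), Bt.12993.1.S1_at (-0.038 to 0.042), Bt.27997.1.A1_at (-0.014 to 0.16) and Bt.27997.1.S1_at (-0.40 to 0.027). The cause was not tested.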
